A study of Homo sapiens with 6 samples.

Results

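Glycolysis is the chain of cytosolic reactions that turns glucose into pyruvate. Cells then either reduce pyruvate to lactate and export it, or oxidise it in mitochondria through the pyruvate dehydrogenase complex. Many steps have several isoforms from separate genes, and tumour cells, in medulloblastoma as elsewhere, are known for favouring isoforms that hypoxia or growth signals induce. The genes described here are 34 listed genes of glucose uptake, glycolysis, lactate handling and pyruvate dehydrogenase control, of 60664 genes counted. They were found by symbol through their Ensembl identifiers, and each matched 1 gene. Of these, 29 had enough counts to be tested and 5 did not.

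The cells were D283 Med, an established human Group 3 medulloblastoma line with an amplified MYC gene. The cells of all 6 libraries had been transfected with an LNA GapmeR, an antisense oligonucleotide that directs RNase H to its target RNA. In 3 libraries (controls 1 to 3) it was scrambled (SCR), and in 3 (knockdown libraries 1 to 3) its target was lncMB3, a long non-coding RNA (KD). Polyadenylated RNA was sequenced, and the comparison asks which of these transcripts differ between the groups. Separate cultures are not stated in the labels. The p-values therefore measure only how these 6 libraries spread, and that spread may be technical. The level of lncMB3 was not analysed here, and its loss cannot be told apart from other effects of the GapmeR. Only 1 cell line was used.

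Total counts ran from 7765826 in knockdown library 1, whose low genes are the least precise, to 20035834 in control 2. The 8 Group 3 markers, among them OTX2 and IMPG2, were all measured, whereas the glial markers GFAP, MBP and MOG and the immune markers PTPRC and AIF1 had at most 0.156 CPM in any library. Of the Group 3 markers 5 fell and 1 rose, and MYC stood at 1103 to 1278 CPM with overlapping groups, and their part in the results was not tested. CPM, the usual depth-scaled count, was taken on library totals after TMM scaling. In edgeR's quasi-likelihood test, 31.7% of 14673 tested genes passed (adjusted p under 0.05), of which the higher ones in the knockdown made up 15.9% of those tested and the lower ones 15.9%. The 2328 higher and 2329 lower genes became 1264 and 1440 without control 2, and 1420 and 1471 without control 3.

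Most of the pathway's transcripts did not pass the test. Those that did were isoforms of phosphofructokinase and enolase, regulatory kinases and a lactate transporter. Of the 29 tested members 7 fell, which were PFKL, PFKP, PFKFB4, ENO2, ENO3, PDK1 and PDK2, and 1 rose, SLC16A1. That is 27.6% of the tested members, near the 31.7% of all tested genes. The falls made up 24.1% against 15.9% of all tested genes, and the rise 3.45% against 15.9%. Without control 3 the members gave 4 falls and 2 rises, and without control 1 also 2 rises. The median log2 change, knockdown over control, was -0.04 over the tested members and 0.00028 over all tested genes. In 12 tested members the libraries of the groups did not overlap, 4 higher and 8 lower (46.0% of all tested genes, 22.9% higher and 23.1% lower). The 34 genes together took 1.64%, 1.57% and 1.79% of all counts in controls, against 1.65%, 1.72% and 1.64% in the knockdown libraries, and these ranges overlap. In such bulk RNA, fewer cells that express a gene and less of its RNA per cell cannot be told apart.

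**Figure D1:**
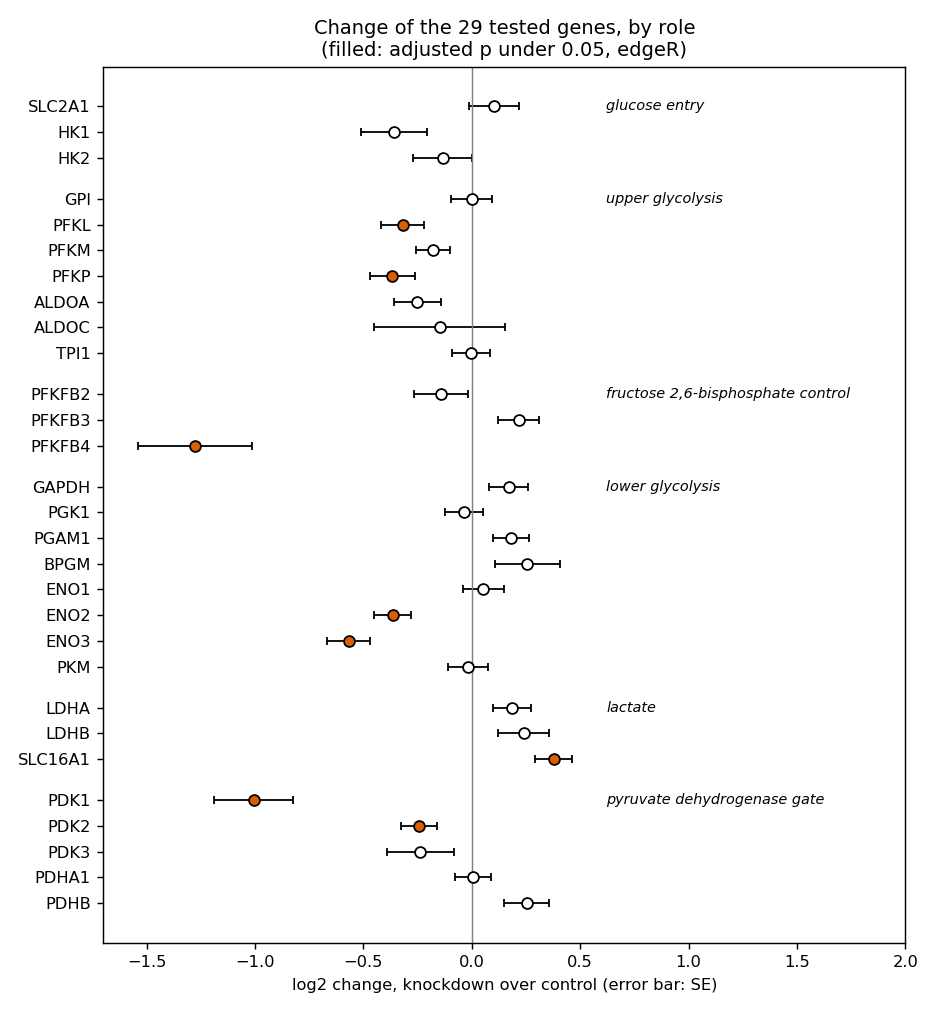
Log2 change, knockdown over control, of the 29 tested genes ordered by role, with SE as error bars and filled points for an adjusted p under 0.05. PFKFB4 (-1.28) and PDK1 (-1.01) lie farthest to the left, and SLC16A1 (0.38) is the only filled point on the right.

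Sequences before the starts of 4 of the 7 genes that fell are shown first, because genes of this pathway are textbook targets of hypoxia-inducible factors, which bind the core ACGTG or GCGTG, and of MYC and related factors, which bind the E-box CACGTG. Both strands of the 250 bases before each gene's RefSeq start (build GRCh38.p14) were searched, with 1 start per gene, and an E-box also holds ACGTG. Sequences were matched for 31 of the 34 members. SLC2A3, SLC16A1 and PFKFB2 were not matched. Matches to the hypoxia core are in capitals, either as ACGTG or GCGTG or as their reverse complements CACGT and CACGC, and all sequences run 5′ to 3′ on the gene's strand. The first is most of the window of PFKL (chr21:44299803-44300050, plus strand), which encodes the liver-type phosphofructokinase, and the others are single sites in the windows of PFKFB4 (chr3:48556953-48556981, minus strand), ENO2 (chr12:6914450-6914478, plus strand) and ENO3 (chr17:4950309-4950337 and chr17:4950452-4950480, plus strand). The RefSeq starts of PFKFB4, ENO2 and ENO3 lie inside the GENCODE 29 spans of these genes given with their levels, so these windows are within the gene, and annotated exons cover 155, 250 and 250 of their 250 bases, against 2 of 250 for PFKL.
PFKL: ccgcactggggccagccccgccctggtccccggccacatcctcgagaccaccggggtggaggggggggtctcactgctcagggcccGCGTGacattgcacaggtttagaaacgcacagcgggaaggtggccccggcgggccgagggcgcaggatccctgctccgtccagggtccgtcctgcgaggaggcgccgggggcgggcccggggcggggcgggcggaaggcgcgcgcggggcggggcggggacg
PFKFB4: tgagttgggcatGCGTGgtcggaggccgg
ENO2: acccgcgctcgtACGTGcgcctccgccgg
ENO3, first site: gaagagccccagGCGTGcagaagctcaca
ENO3, second site: accgacagtcccCACGCcgggcgacaagt

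For contrast, LDHA, a known hypoxia target that did not pass the test, had 3 sites, the first pair of them E-boxes (chr11:18394366-18394395, chr11:18394464-18394493 and chr11:18394478-18394506, plus strand). Exons cover 175 of the 250 bases of its window.
LDHA, first site: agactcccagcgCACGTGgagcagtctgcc
LDHA, second site: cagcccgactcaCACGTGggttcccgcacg
LDHA, last site: cgtgggttcccgCACGTccgccggccccc

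The hypoxia core stood in the windows of 4 of the 7 genes that fell (57.1%) and of 13 of the 20 tested and matched genes that did not pass the test (65.0%). It stood in 19 of all 31 matched members (61.3%) and in 43.1% of 27305 RefSeq promoters. The windows of PFKP, PDK1 and PDK2 held no match to these letters. The E-box stood in 0 of the 7 windows of genes that fell, in 4 of the 20, and in 6.49% of all promoters. Such matches describe the letters in these windows and are not evidence of binding.

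Glucose enters through facilitative transporters and is trapped by hexokinases. SLC2A1, the main glucose transporter GLUT1, stood at 71.7, 67.4 and 92.1 CPM in controls 1 to 3 and 86, 73.7 and 88.5 CPM in knockdown libraries. The groups overlapped (log2 change 0.10 ± 0.11 (SE), adjusted p = 0.536). SLC2A3, the neuronal transporter GLUT3, had 0, 0 and 1 counts in controls, against 0, 1 and 0 in the knockdown, too few to test. Its 3 pseudogene copies summed to 8.07 and 8.21 CPM in the groups, so reads could be assigned to either and its level is uncertain.

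HK1, the widely expressed hexokinase, was at 29.5, 37.9 and 52.0 CPM in controls, against 32.0, 30.6 and 30.6 CPM in knockdown libraries. Its log2 change was -0.36 ± 0.15, and it did not pass the test (adjusted p = 0.0848), although it did without control 1 (adjusted p = 0.00666, log2 change -0.53) and with no low-count filter (0.00456). Without control 3 its log2 change was -0.12. HK2, the inducible hexokinase, was at 135, 144 and 208 CPM in controls, against 162, 133 and 149.6 CPM in knockdown libraries (log2 change -0.14 ± 0.14, adjusted p = 0.473), and its change turned to 0.08 without control 3. Control 3 was the highest of the controls in both hexokinases.

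A related gene outside the 34 was the most abundant of the hexokinases. HKDC1, a hexokinase-like enzyme whose gene lies just upstream of HK1 on chromosome 10 (69220303 to 69267559), was at 364, 512 and 465 CPM in controls, against 303, 296 and 285 CPM in knockdown libraries. All knockdown libraries lay below all controls, and it fell 1.52-fold (log2 change -0.60 ± 0.11, adjusted p = 0.00117). Per kilobase of transcript, a scale on which genes can be compared, the control levels were 121 CPM for HKDC1, 28.1 CPM for HK2 and 11 CPM for HK1, and the order was the same per kilobase of coding sequence (162, 59.1 and 14.5 CPM).

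**Figure D2:**
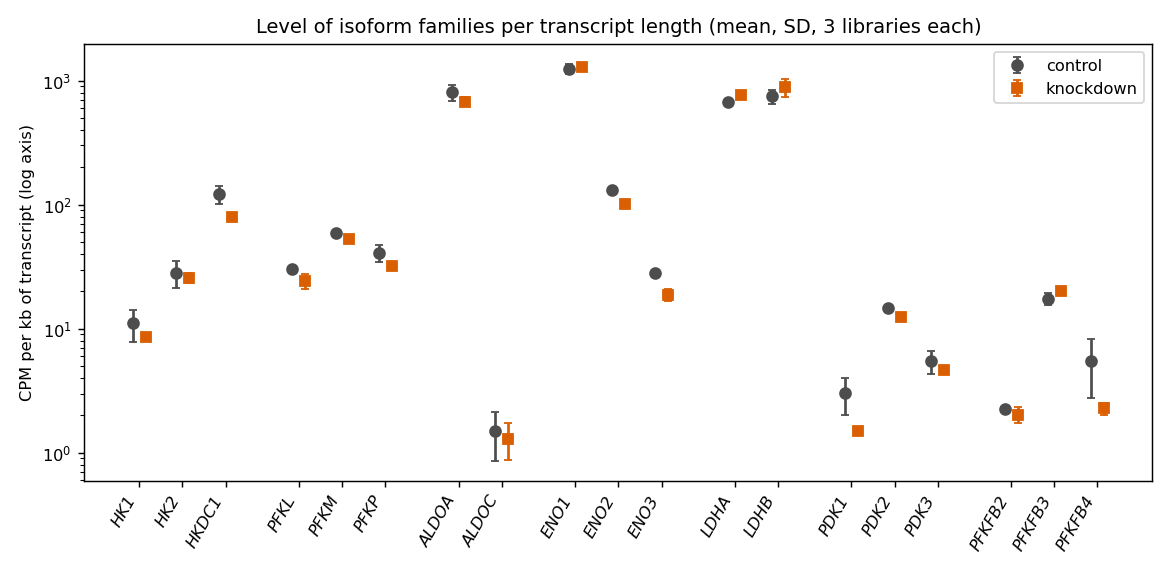
Mean level per kilobase of principal transcript (CPM per kb, log axis, SD as error bars, 3 libraries a group) of isoform families, with controls as dots and knockdown libraries as squares. HKDC1 lies above HK2 and HK1, and ALDOA and ENO1 lie above their partners in both groups.

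In the upper part of glycolysis 2 of 7 tested genes passed the test (28.6%, near the 31.7% of all tested genes). Both were phosphofructokinase genes, of which there are 3, and both fell. Phosphofructokinase commits glucose to glycolysis and is built from the liver, muscle and platelet subunits. PFKP, the platelet type (chromosome 10, 3066333 to 3137712, plus strand), was at 97.6, 101.4 and 128 CPM in controls, against 87.9, 83.0 and 83.4 CPM in knockdown libraries. It fell 1.29-fold (log2 change -0.37 ± 0.10, adjusted p = 0.0143), but without control 3 the log2 change was -0.23 and the call was lost (adjusted p = 0.0862). PFKL (chromosome 21, 44300051 to 44327376, plus strand) was at 85.8, 87.2 and 92.4 CPM in controls, against 76.5, 77.1 and 59.8 CPM in knockdown libraries.

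PFKL fell 1.25-fold (log2 change -0.32 ± 0.10, adjusted p = 0.0254), and knockdown library 3 was the lowest. Its call was lost without control 2 (adjusted p = 0.0692), control 3 (0.0847) or knockdown library 3 (0.119, log2 change -0.21, over 1.5 times smaller). PFKM, the muscle type, was at 192, 191 and 191 CPM in controls, against 176, 171 and 160.3 CPM in knockdown libraries, with no overlap. It did not pass the test (log2 change -0.18 ± 0.08, adjusted p = 0.0945), except with upper-quartile scaling (0.0314). PFKM overlaps SENP1 on the other strand, at 34.8 and 39.7 CPM in the groups. Of the 3 subunits PFKM was the most abundant per kilobase of transcript in the controls (59.4 CPM), followed by PFKP (41.1 CPM) and PFKL (30.4 CPM).

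The other enzymes of the upper part did not pass the test. GPI, the glucose phosphate isomerase, was at 218 to 282 CPM in controls, against 244 to 248 CPM in knockdown libraries (log2 change -0.0014 ± 0.10). ALDOA, the main aldolase, was at 1189, 1183 and 1506 CPM in controls, against 1052, 1191 and 1014 CPM in knockdown libraries (log2 change -0.25 ± 0.11, adjusted p = 0.0884). It passed without knockdown library 2 (adjusted p = 0.0327), with upper-quartile scaling (0.0448) and with no low-count filter (0.0316). ALDOC, the brain aldolase, was at 1.87 to 4.36 CPM in controls, against 1.82 to 3.49 CPM in knockdown libraries, and TPI1, triosephosphate isomerase, had a log2 change of -0.01 ± 0.09.

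PFKFB4 had the largest change of the 29 tested members. PFKFB enzymes make and break down fructose 2,6-bisphosphate, the activator of phosphofructokinase, and PFKFB4 (chromosome 3, 48517684 to 48562015, minus strand) is known as hypoxia-inducible. It was at 11.9, 16.5 and 30.6 CPM in controls, against 8.58, 8.82 and 7.14 CPM in knockdown libraries. Every knockdown library lay below every control, while the controls themselves were spread widely, with control 3 the highest. The fall was 2.42-fold (log2 change -1.28 ± 0.26, adjusted p = 0.00253). Without control 3 the log2 change was -0.81, still past the test (adjusted p = 0.00381).

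Neither of its tested relatives passed the test. PFKFB3, whose product mostly makes fructose 2,6-bisphosphate, was at 75.5, 71.2 and 88.2 CPM in controls, against 95.3, 85.7 and 92.2 CPM in knockdown libraries (log2 change 0.22 ± 0.09, adjusted p = 0.0931), and it passed without control 3 (adjusted p = 0.0348, log2 change 0.31). PFKFB2 was at 14.9 to 16.9 CPM and 12.5 to 16.6 CPM (log2 change -0.14 ± 0.12, adjusted p = 0.403). PFKFB2 overlaps YOD1 on the other strand, which stood at 48.6 and 69.4 CPM in the groups. No source says that strand was used in counting, so reads from any bases that the pair shares cannot be told apart. The overlap is of gene spans, and shared exon bases were not counted.

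In the lower part of glycolysis 2 of 8 tested genes passed the test (25.0%, against 31.7% of all tested genes). Both were enolase genes, of which there are 3, and both fell. Enolase makes phosphoenolpyruvate, and ENO2 is the neuronal isoform (chromosome 12, 6913745 to 6923698, plus strand). It was at 348, 367 and 394 CPM in controls, against 288, 302 and 271 CPM in knockdown libraries, without overlap. ENO2 fell 1.29-fold (log2 change -0.36 ± 0.08, adjusted p = 0.00526). ENO3, the muscle isoform (chromosome 17, 4948092 to 4957131, plus strand), was at 40.0, 43.4 and 44.4 CPM in controls, against 27.4, 32.1 and 26.4 CPM in knockdown libraries, also without overlap.

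ENO3 fell 1.48-fold (log2 change -0.57 ± 0.10, adjusted p = 0.000909). It overlaps PFN1 on the other strand, which stood at 333 CPM in controls, against 399.5 CPM in knockdown libraries. Reads from any bases that ENO3 and PFN1 share cannot be told apart without strand, and shared exon bases were not counted. ENO1, the ubiquitous isoform, was at 2937, 2643 and 3199 CPM in controls, against 2945, 3176 and 2983 CPM in knockdown libraries (log2 change 0.05 ± 0.10, and -0.01 with upper-quartile scaling). The calls of ENO2 and ENO3 held in all 13 alternative fits.

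GAPDH, which makes NADH in the first step of the lower part, was at 2601, 2412 and 2705 CPM in controls, against 2873, 3019.6 and 2789.6 CPM in knockdown libraries (log2 change 0.17 ± 0.09, adjusted p = 0.162). PGAM1, a phosphoglycerate mutase, was at 712, 650.2 and 711 CPM and then 769.5, 810.3 and 769 CPM (log2 change 0.18 ± 0.08, adjusted p = 0.113). In both genes the knockdown libraries lay above the controls, yet neither passed the test. PGK1, a phosphoglycerate kinase that makes ATP, had a log2 change of -0.04 ± 0.09 and PKM, the pyruvate kinase of most tumours, one of -0.02 ± 0.09. BPGM, which makes the side product 2,3-bisphosphoglycerate, was at 6.82 to 9.10 CPM and 7.93 to 10.7 CPM. PGAM2, the muscle mutase, had 0 to 4 counts a library and PKLR, the liver pyruvate kinase, 0 in each control and 2, 0 and 1 in the knockdown, where a count of 0 allows up to 0.15 to 0.386 CPM, depending on the library and for counting error only. On the other strand PGAM2 overlaps DBNL (38.3 and 42.0 CPM in the groups) and PKLR overlaps HCN3 (8.90 and 8.07 CPM).

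Among the 9 members with a control mean of at least 500 CPM, a limit set after the values were seen, 0 passed edgeR's test. These were ALDOA, TPI1, GAPDH, PGK1, PGAM1, ENO1, PKM, LDHA and LDHB, with 2 at an unadjusted p under 0.05. Both DESeq2 and limma-voom likewise called 0, while ALDOA passed in the 3 alternatives given above. Their log2 changes lay between -0.25 and 0.24. Of all 253 tested genes at such a level, 22.1% passed. Of the 20 tested members below it, 8 passed (40.0%, against 31.9% of all tested genes below it). SLC16A1, which rose, was among these and lay just under the limit, with a control mean of 461 CPM. The count of 0 therefore depends on where the limit was set.

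**Figure D3:**
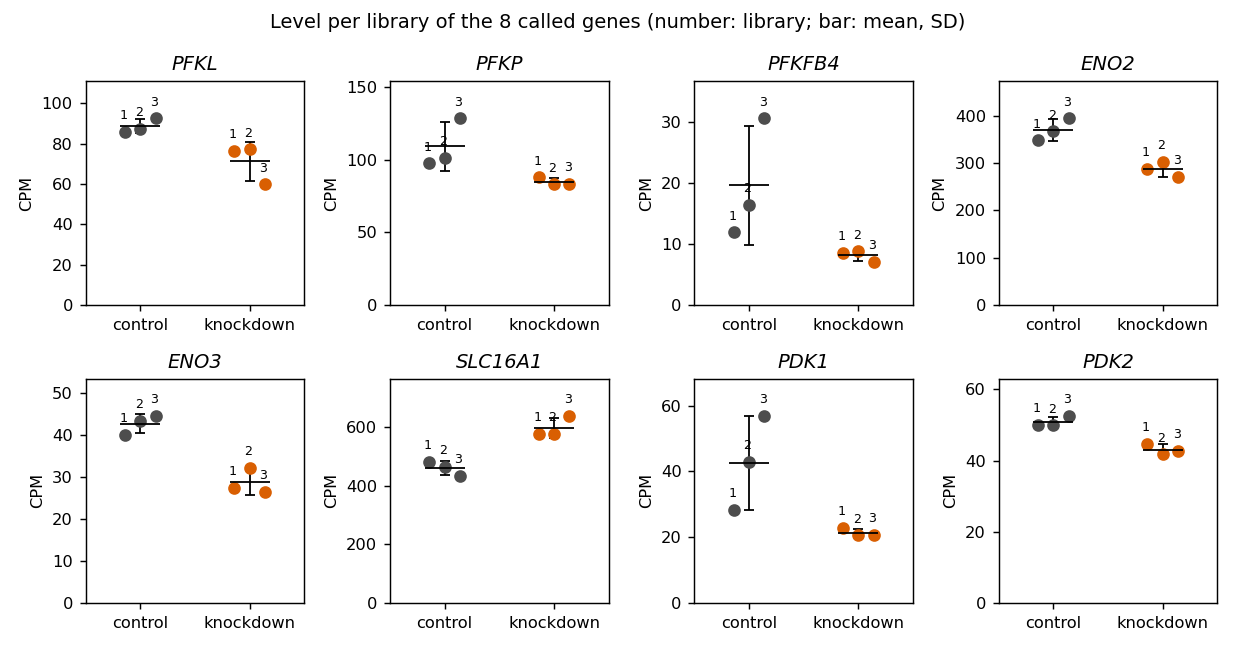
Level in CPM of the 8 genes that passed the test, in each control (grey) and knockdown library (orange), with the library number beside each point and the group mean and SD as bars. In PFKFB4 and PDK1 control 3 is the highest and control 1 the lowest of the controls, and SLC16A1 alone is higher in the knockdown.

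All 3 tested lactate genes had positive changes, as had 7344 of all 14673 tested genes. Of these 3 lactate genes 1 passed the test (33.3%, near the 31.7% of all tested genes). Lactate dehydrogenase converts pyruvate to lactate and back, with LDHA coding for the muscle subunit and LDHB for the heart subunit. LDHA was at 1661, 1541 and 1666 CPM in controls, against 1788, 1952 and 1793 CPM in knockdown libraries, without overlap but short of the threshold (log2 change 0.19 ± 0.09, adjusted p = 0.119). LDHB was at 1277, 1188 and 991 CPM in controls, against 1222, 1607 and 1247 CPM in knockdown libraries, with overlap (log2 change 0.24 ± 0.12, adjusted p = 0.142).

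SLC16A1 (chromosome 1, 112911847 to 112957013, minus strand) encodes MCT1, a transporter that carries lactate and pyruvate across the plasma membrane. It was at 483, 465 and 435 CPM in controls, against 579, 579 and 639 CPM in knockdown libraries. All knockdown libraries lay above all controls, and it rose 1.30-fold (log2 change 0.38 ± 0.08, adjusted p = 0.00432), a call kept in all 13 alternative fits. SLC16A3, the lactate exporter MCT4, had 7, 10 and 9 counts in controls, against 3, 11 and 13 in the knockdown, and was too low to test. It overlaps CSNK1D on the other strand, at 161 and 181 CPM in the groups.

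Of 5 tested members for pyruvate dehydrogenase and the kinases that switch it off, 2 passed the test (40.0%, against 31.7% of all tested genes). Both were kinase genes, and both fell, while the subunit genes PDHA1 and PDHB did not pass. A further kinase gene, PDK4, was too low to test. PDK1 (chromosome 2, 172555373 to 172608669, plus strand), a known hypoxia target, was at 28.3, 42.9 and 56.8 CPM in controls, against 22.8, 20.6 and 20.8 CPM in knockdown libraries. The groups did not overlap, and control 1 lay nearest the knockdown. PDK1 fell 2.01-fold (log2 change -1.01 ± 0.18, adjusted p = 0.00117), and without control 3 its log2 change was -0.75 (adjusted p = 0.0032). PDK2 (chromosome 17, 50094737 to 50112152, plus strand) was at 50.1, 49.9 and 52.5 CPM in controls, against 44.7, 41.7 and 42.7 CPM in knockdown libraries.

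PDK2 fell 1.18-fold (log2 change -0.24 ± 0.08, adjusted p = 0.0367), the least secure of the 8 calls. It was lost in 8 of 13 alternative fits, among them DESeq2 (adjusted p = 0.0553), the fit with no low-count filter (0.0692) and the fits without control 2 (0.099), control 3 (0.12) or any 1 of knockdown libraries 1 to 3 (0.0705, 0.0739 and 0.0847). It also overlaps SAMD14 on the other strand, at 3.97 and 2.43 CPM in the groups. PDK3, the X-linked isoform, was at 8.25 to 12.5 CPM in controls, against 8.44 to 9.76 CPM in knockdown libraries (log2 change -0.24 ± 0.15, adjusted p = 0.257). PDK4, the fasting-induced isoform, had 4, 0 and 5 counts in controls, against 0, 0 and 1 in the knockdown.

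PDHA1, the catalytic alpha subunit of the complex, had a log2 change of 0.01 ± 0.08 (-0.05 with upper-quartile scaling). PDHB, the beta subunit, was at 105, 87.3 and 79.7 CPM in controls, against 104, 116 and 104 CPM in knockdown libraries (log2 change 0.25 ± 0.10, adjusted p = 0.0735), and passed without control 1 (adjusted p = 0.00834, log2 change 0.38).

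Isoform balance was read as the log2 ratio of the counts of 2 partners within a library, which needs no library scaling. With 3 libraries against 3 the smallest p of the exact 2-sided permutation test is 0.1, so none of the 8 pairs could reach 0.05. ENO2 to ENO1 was at -3.08, -2.85 and -3.02 in controls, against -3.35, -3.39 and -3.46 in the knockdown. The groups did not overlap, and the difference, knockdown minus control, was -0.42 (exact p = 0.1, adjusted p = 0.4 over the 8 pairs). PDK1 to PDK3 was at 1.77, 2.01 and 2.18 in controls, against 1.22, 1.23 and 1.30 in the knockdown, a difference of -0.74 (exact p = 0.1, adjusted p = 0.4), also without overlap.

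The other pairs overlapped between the groups. HK2 to HK1 had a mean of 2.04 ± 0.14 (SD, n = 3) in controls, against 2.25 ± 0.11 in the knockdown (exact p = 0.2, adjusted p = 0.4). PFKP to PFKM had a mean of -0.82 ± 0.22 and -0.997 ± 0.05 (exact p = 0.2, adjusted p = 0.4). LDHB to LDHA was at -0.38, -0.38 and -0.75 in controls, against -0.55, -0.28 and -0.52 in the knockdown (difference 0.05, exact p = 0.8, adjusted p = 0.9), and ALDOC to ALDOA differed by 0.08 (exact p = 0.7, adjusted p = 0.9). SLC16A3 to SLC16A1 (difference -0.15, exact p = 0.5, adjusted p = 0.8) and SLC2A3 to SLC2A1 (0.27, exact p = 0.9, adjusted p = 0.9) rest on the few counts of their first partner.

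**Figure D4:**
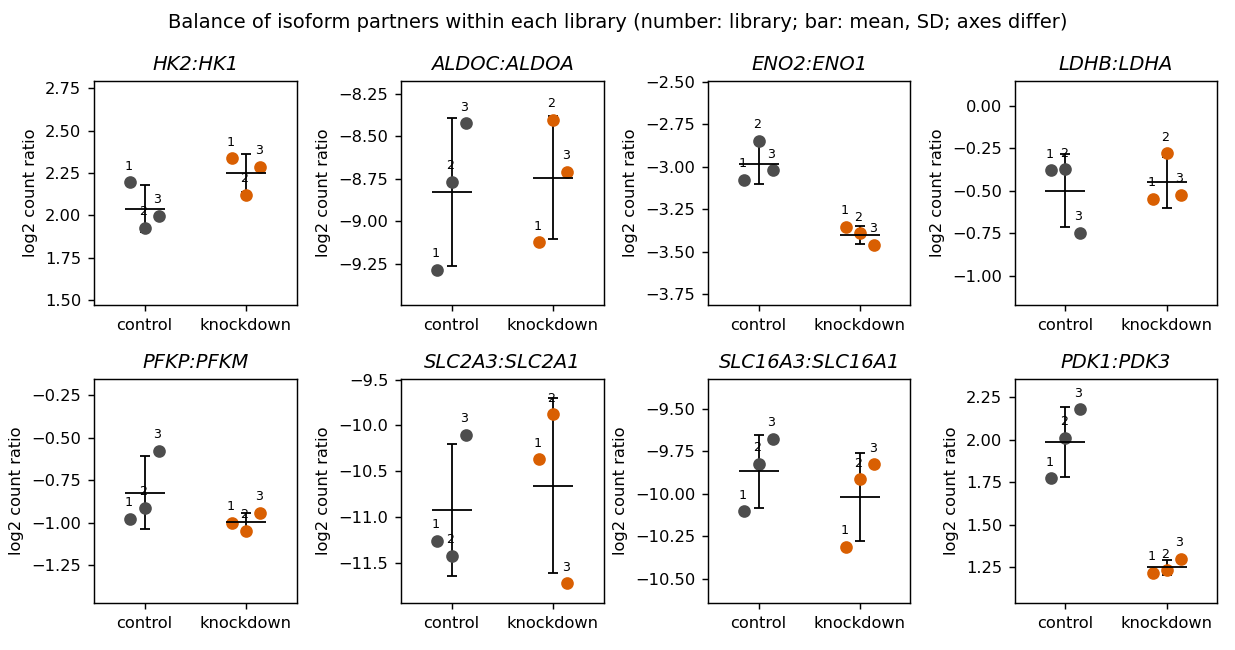
Log2 ratio of the counts of 2 partner genes within each library, for 8 pairs in controls (grey) and knockdown libraries (orange), with the group mean and SD as bars and a separate axis for each pair. ENO2:ENO1 and PDK1:PDK3 are lower in every knockdown library than in every control, and the other pairs overlap.

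Per kilobase of transcript ENO1 stood at 1248 CPM in the controls, ENO2 at 131 CPM and ENO3 at 28 CPM, and ALDOA at 806 CPM against 1.5 CPM for ALDOC. The order of LDHA and LDHB depended on the length used. Per kilobase of transcript they stood at 672 and 749 CPM in the controls, and per kilobase of coding sequence at 1629 and 1150 CPM. For the PDK family the order per kilobase of transcript was PDK2 (14.8 CPM), PDK3 (5.45 CPM) and PDK1 (3.01 CPM), and per kilobase of coding sequence PDK2 (41.6 CPM), PDK1 (32.6 CPM) and PDK3 (8.40 CPM), since the annotated PDK1 transcript is 14193 bases long.

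In all 7 members that fell, control 3 was the highest control, and in 6 of them control 1 was the lowest. Over the 29 tested members control 3 was the highest control in 21, while controls 1 and 2 were each the lowest in 12. Reads can be shared with near-identical copies. Pseudogene copies named after GAPDH, PGK1, PGAM1, ENO1, PKM and TPI1 summed to at most 0.219% of the counts of their parent gene, and those of LDHA to 1.12%.

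The neighbouring pathways were read from 8 lists of 106 genes. Of 9 tested genes of mitochondrial pyruvate use 3 rose (33.3%, against 15.9% of all tested genes). DLAT, the acetyltransferase subunit of pyruvate dehydrogenase, rose 1.39-fold from 81.0 ± 9.29 to 113 ± 7.32 CPM (SD, n = 3, adjusted p = 0.00228). PDP1, the phosphatase that reactivates the complex, rose 1.31-fold (adjusted p = 0.0149). DLD, its dihydrolipoamide dehydrogenase, rose 1.22-fold (adjusted p = 0.0427).

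The call of DLAT held in all 13 alternative fits. PDP1 lost its call without control 2, control 3 or knockdown library 3, with an adjusted p of up to 0.103. DLD lost its call with upper-quartile scaling and without control 3 or any 1 knockdown library, with an adjusted p of up to 0.205 and a log2 change as low as 0.18 in place of 0.28.

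Of 16 citric acid cycle genes 6 rose (37.5%) and 1 fell (6.25%), against 15.9% of all tested genes in each direction. IDH3A, an isocitrate dehydrogenase subunit, rose 1.40-fold (adjusted p = 0.00391) and SDHB, a succinate dehydrogenase subunit, 1.32-fold (adjusted p = 0.00597). SUCLG2, a succinyl-CoA ligase subunit, fell 1.26-fold (adjusted p = 0.00771). Of 7 tested pentose phosphate genes 1 passed (14.3%, against 31.7% of all tested genes). That was RPIA, ribose phosphate isomerase, which rose 1.27-fold (adjusted p = 0.0177) and lost its call without control 2, control 3 or knockdown library 2 (adjusted p up to 0.0891).

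Of 12 other sugar and monocarboxylate transport genes tested, 2 rose (16.7%) and 4 fell (33.3%). The share that rose was near the 15.9% of all tested genes, and 15.9% of those fell. SLC2A5, the fructose transporter GLUT5, rose 1.62-fold from 5.19 ± 0.368 to 8.47 ± 0.659 CPM (adjusted p = 0.00261), and SLC2A12, the transporter GLUT12, fell 2.07-fold from 4.92 ± 0.583 to 2.45 ± 0.442 CPM (adjusted p = 0.00186). EMB, embigin, an accessory protein of monocarboxylate transporters, fell 1.38-fold (adjusted p = 0.0038). HKDC1 was the only call among 3 tested of 12 other glycolytic isoforms (33.3%, near the 31.7% of all tested genes). Of 6 tested genes of gluconeogenesis and the glycerol shuttle 2 rose (33.3%) and 1 fell (16.7%), the latter near the share of all tested genes. GPD1, the cytosolic glycerol phosphate dehydrogenase, rose 2.14-fold from 9.23 ± 0.629 to 19.5 ± 1.73 CPM (adjusted p = 4.48e-05), and PGP, phosphoglycolate phosphatase, 1.46-fold (adjusted p = 0.00156), while PCK2, the mitochondrial PEP carboxykinase, fell 3.78-fold (adjusted p = 3.27e-05).

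Among hypoxia-induced genes outside glycolysis there were 14 falls and 1 rise of 23 tested. The rise was that of EGLN3, 1.23-fold from 93.9 ± 6.53 to 116 ± 1.61 CPM (adjusted p = 0.013). It was lost without control 2 or knockdown library 3 (0 rises in each). The falls made up 60.9%, beside 24.1% of the members and 15.9% of all tested genes, and the difference between the lists was not tested. DDIT4, an mTORC1 inhibitor, fell 6.99-fold from 260.4 ± 97.4 to 37.2 ± 5.91 CPM (adjusted p = 1.51e-05), NDRG1 3.87-fold and STC2, a secreted glycoprotein, 2.35-fold (adjusted p = 4.49e-05 for each). Control 3 was the highest control in 12 of these 14 falls and control 1 the lowest in 12. Of 8 transcription factors 3 rose (37.5%) and 2 fell (25.0%), against 15.9% of all tested genes in each direction. HIF1A, the hypoxia-inducible factor itself, rose 1.29-fold from 193 ± 15.2 to 248 ± 29.5 CPM (adjusted p = 0.012), EPAS1, its relative HIF-2 alpha, 1.36-fold (adjusted p = 0.00683), and MLX, a partner of the glucose-sensing factors, 1.39-fold (adjusted p = 0.000707). The call of HIF1A was lost without control 2, knockdown library 1 or knockdown library 3 (adjusted p up to 0.0709).

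**Figure D5:**
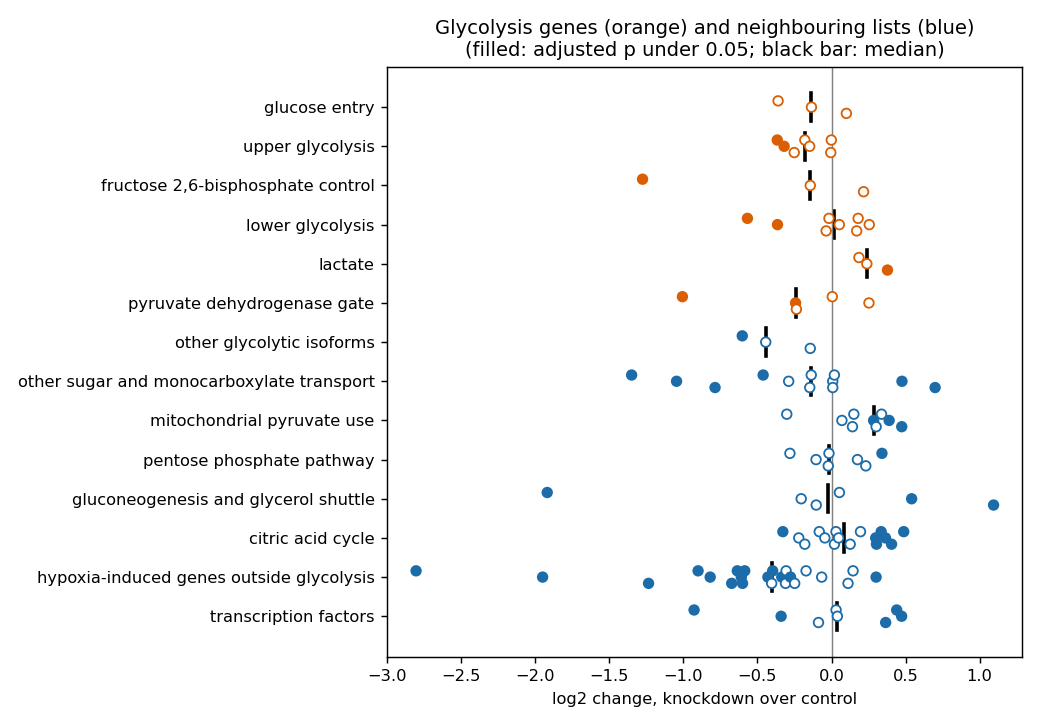
Log2 change of every tested gene in the 6 role groups of the 34 genes (orange) and in 8 neighbouring lists (blue), filled where the adjusted p was under 0.05, with the median of each list as a black bar. The hypoxia list, which has the most tested genes, has the most filled points on the left (14 of 23). The 1 filled point of the lactate genes and the 3 of mitochondrial pyruvate use lie on the right.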

How the data were processed

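Libraries were trimmed, aligned and counted by the authors; the submitters' processing notes name Trim Galore 0.6.4, STAR 2.7.9a, RSEM and the build GRCh38.p13. The sources used here do not give the RSEM version, the annotation or the strand setting. Deposited values are whole numbers, taken here for RSEM's estimated counts, rounded by the authors. RSEM shares reads among genes they match, so counts of near-identical genes are uncertain. Counts of 44 pseudoautosomal Y entries were summed with the X entries, giving 60664 genes.

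The test was edgeR's quasi-likelihood F test (version 4.0.16 in R 4.3.3) after filterByExpr and TMM scaling, 2-sided and with no covariate, with Benjamini-Hochberg adjustment over 14673 genes and a threshold of 0.05. The SE was taken as the absolute log2 change over the root of F. The script was tested on simulated data. Isoform ratios used counts plus 0.5. Lengths are those of GENCODE 29 principal transcripts, and gene coordinates are GENCODE 29 (GRCh38, 1-based).

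The members and lists were chosen with earlier results of these data known. All 34 members are named, and in each neighbouring list up to 3 genes with the smallest adjusted p under 0.05. The transcription factors that fell, ARNT and MLXIPL, and the gene of the hypoxia list that rose, EGLN3, are named in addition. Alternatives were scaling by RLE or upper quartile, testing without a low-count filter or at 1 CPM in 3 libraries, DESeq2 1.42.0, limma-voom (limma 3.58.1), a replicate block, leaving out each library, a threshold of 0.01, and for the ratios an offset of 5 counts. Those of the neighbouring lists were added after seeing the data. The result of 1 marker gene is not reported here.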

Additional observations from a re-analysis of the deposited data

How the results depend on the processing

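PFKFB4, PDK1, ENO2, ENO3 and SLC16A1 passed in all 13 alternative fits, while PFKL passed in 10, PFKP in 12 and PDK2 in 5. The 7 falls among members became 4 at a threshold of 0.01 and ran from 4 to 8 when 1 library was left out (4 without control 3). The 1 rise became 2 with the replicate block, where PDHB was added, and ran from 1 to 2 when 1 library was left out. Over all tested genes, 2328 rises and 2329 falls became 1190 and 1269 at 0.01, and ran from 1264 to 2604 and from 1440 to 2510 when 1 library was left out. In the neighbouring lists 18 rises became 8 at 0.01 and ran from 10 to 19 when 1 library was left out, and the 1 rise of the hypoxia list became 0 at 0.01 and ran from 0 to 1. Signs turned only in members and ratios that had not passed the test. GPI turned to 0.0020 with RLE scaling and with DESeq2, 0.0067 with limma-voom and 0.0064 with the replicate block. PDHA1 turned to -0.052 with upper-quartile scaling, -0.0067 with no low-count filter and -0.0075 with 1 CPM in 3 libraries, and ENO1 to -0.0055 with upper-quartile scaling. When 1 library was left out the log2 change ran from -0.25 to 0.081 for HK2, -0.082 to 0.11 for GPI, -0.44 to 0.22 for ALDOC, -0.068 to 0.025 for TPI1, -0.076 to 0.032 for PGK1, -0.018 to 0.12 for ENO1, -0.071 to 0.045 for PKM and -0.043 to 0.047 for PDHA1. Ratio differences ran from -0.15 to 0.28 for ALDOC to ALDOA, -0.074 to 0.11 for LDHB to LDHA and -0.12 to 0.81 for SLC2A3 to SLC2A1. The cause of these shifts was not tested. Upper-quartile scaling moved the median of all genes by -0.06. Same-numbered libraries deviated from their group means with correlations of 0.03, 0.10 and -0.03. The largest correlation of any control with any knockdown library was that of control 2 with knockdown library 2 (0.10). Control 1 correlated best with knockdown library 3 (0.04). Correlations this small cannot decide whether same-numbered libraries were paired, and the labels give only a number. With the replicate block as a term, members gave 7 falls and 2 rises, with PDK2 lost (adjusted p = 0.0591) and HK1 (0.0367) and PDHB (0.0494) gained, and all tested genes 2357 rises and 2385 falls. Depth limits SLC2A3, PGAM2, PKLR, SLC16A3 and PDK4, which had at most 13 counts in a library.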
